A study of Mus musculus with 21 samples.

Results

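Cells that die in the bone marrow are recognised and cleared through bridging molecules and receptors, and the genes of that system are described here across 3 blood progenitor populations of mice with a mutant or a normal Etv6 gene. The 7 listed genes were Gas6, Pros1, Axl, Mertk, Tyro3, Mfge8 and Scarf1. They were picked by name from an expression table of 11628 genes, in which 6 of them had a row, and Tyro3 was not analysed here. The set was chosen by results of the same data, since Gas6 and Scarf1 had passed the test in mutant against wild-type MPP4 cells. Values from that comparison are therefore given as a description, with no test.

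A dying cell moves the lipid phosphatidylserine to its outer surface. Gas6 and Pros1 (protein S) are secreted, vitamin K-dependent proteins that bind this lipid with one end and a receptor kinase of the Tyro3, Axl and Mertk family (the TAM receptors) with the other. Gas6 can activate all of the TAM receptors, whereas protein S acts on Tyro3 and Mertk. Mfge8 is a second kind of bridge, from phosphatidylserine to integrins, and Scarf1 is a scavenger receptor that takes up dying cells coated with complement C1q. In mice, macrophages of the marrow are known users of Mertk and Axl, and both kinases also dampen inflammatory signalling.

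Polyadenylated RNA was measured in sorted bone marrow cells of mice homozygous for a germline Etv6 mutation, recorded with the human-numbered change P214L, and in wild-type mice. Etv6 is an ETS-family transcriptional repressor. The groups were mutant HSC, MPP4 and CLP (n = 4 libraries each) and wild-type HSC, MPP4 and CLP (n = 3 each), from mice of 10 or 12 weeks and both sexes. The mutation is in the germline, so every cell of these mice carries it, including the marrow cells that surround the progenitors. Haematopoietic stem cells (HSC) were sorted as lineage-negative, cKit-positive, Sca1-positive cells without FLK2 and CD38 and with CD150. Multipotent progenitors 4 (MPP4), the lymphoid-primed progenitors, were lineage-negative, cKit-positive, Sca1-positive and FLK2-positive. Common lymphoid progenitors (CLP) were lineage-negative cells with IL7 receptor and Flk2 staining and low cKit and Sca1. The values are RPKM, read numbers scaled to gene length and library size, as the authors deposited them, and the number of reads behind them is unknown. Since the populations are bulk samples, fewer cells of a type and less RNA per cell cannot be told apart.

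The 21 libraries were alike in scale, with a median gene of 12.0 to 13.6 RPKM. Etv6 itself lay between 62.0 and 120.6 RPKM in the 21 libraries, and its level does not check a change of protein sequence. Genes of the gates were read in each population. Flt3, which encodes Flk2, was at 10.7 to 17.5 RPKM in HSC against 349 to 416 RPKM in MPP4, and Il7r was at 81.1 to 103.5 RPKM in CLP against 5.94 to 15.3 RPKM in MPP4. Cd38 RNA was higher in HSC, the cells labelled as sorted without CD38, at 3.87 to 10.5 RPKM, than in MPP4, at 1.14 to 2.59 RPKM. The gate reads surface protein, which RNA does not measure. Certain libraries stood apart on markers of other cells. Mutant MPP4 replicate 1 had a summed level of 445 RPKM over the 11 genes with a row of 14 listed megakaryocyte and platelet markers, against 53.3 to 69.1 RPKM in the other mutant and 29.3 to 212 RPKM in the wild-type MPP4 libraries. Mutant CLP replicate 4 had 653 RPKM over the 14 genes with a row of 16 listed macrophage and monocyte markers, none of them at 0 there, against 202 to 481 RPKM in the other mutant and 213 to 305 RPKM in the wild-type CLP libraries. It also had the highest erythroid (5004 RPKM) and neutrophil (2283 RPKM) sums of the CLP. Wild-type HSC replicate 2 had a neutrophil sum of 1536 RPKM, against 94.6 to 245 RPKM in the other HSC libraries.

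Promoters of 2 members are shown because the mutated protein belongs to the ETS family, whose DNA sites are built on the letters GGAA. Each line gives the 250 bases before the start of the gene in RefSeq (GRCm38.p6), 5′ to 3′ along the gene's own strand, with GGAA or its reverse complement TTCC in capitals. Gas6 (chromosome 8, 13465374 to 13494535, minus strand) is the member whose own mean was higher in mutant MPP4 than in any other group. Mfge8 (chromosome 7, 79133768 to 79149060, minus strand) is the member whose mutant and wild-type CLP did not overlap.
Gas6, chr8:13494536-13494785, minus strand: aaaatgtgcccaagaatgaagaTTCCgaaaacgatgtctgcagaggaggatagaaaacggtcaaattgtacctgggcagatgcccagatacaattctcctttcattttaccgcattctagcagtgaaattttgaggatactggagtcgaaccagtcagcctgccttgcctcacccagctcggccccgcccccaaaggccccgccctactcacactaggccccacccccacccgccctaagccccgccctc
Mfge8, chr7:79149061-79149310, minus strand: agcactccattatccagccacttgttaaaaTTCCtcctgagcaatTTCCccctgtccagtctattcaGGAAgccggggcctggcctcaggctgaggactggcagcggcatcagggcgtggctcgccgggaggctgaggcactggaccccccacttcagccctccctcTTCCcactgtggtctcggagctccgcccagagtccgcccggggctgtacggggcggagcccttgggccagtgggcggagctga
The Gas6 window held 1 such match, a TTCC that lies 228 to 225 bases before the start, and the Mfge8 window held 4. The windows of Axl, Pros1 and Mertk held 3, 5 and 5 matches. Counted the same way on both strands, 93.4% of the 27025 RefSeq promoters held at least 1 match, and 33.4% held at least 4, so these letters are common in windows of this length. A match is a description of the letters and not a measured binding site.

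Gas6, the ligand of the TAM receptors, was at similar levels in mutant and wild-type HSC, was about 2.06 times as high in mutant as in wild-type MPP4, and was close to the bottom of the scale in CLP of both genotypes. In HSC it had 12.8, 10.2, 10.5 and 8.95 RPKM in the mutant libraries, against 10.9, 8.18 and 12.4 RPKM in the wild-type libraries. In MPP4 it had 18.3, 15.4, 20.8 and 20.2 RPKM in the mutant libraries, against 9.56, 9.17 and 8.46 RPKM in the wild-type libraries. In CLP it had 0.728, 0.430, 0.521 and 0.928 RPKM in the mutant libraries, against 0.446, 0.215 and 0.679 RPKM in the wild-type libraries. The genotypes overlapped in HSC and CLP. In MPP4 they did not, and the 4 mutant MPP4 libraries lay above all 17 other libraries. Of the 11496 genes tested, 32 (0.278%) had that pattern, and Gas6 was the only member among them. The pattern rests on the MPP4 libraries of the comparison that chose Gas6, so nothing is read from how rare it is.

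The Gas6 means were 18.7 ± 2.41 RPKM in mutant MPP4 (SD, n = 4) and 9.06 ± 0.557 RPKM in wild-type MPP4 (n = 3), a difference of 0.96 on the scale of log2(RPKM + 1), on which every log2 difference below is given. Leaving out each MPP4 library in turn moved this difference between 0.91 and 1.04. In HSC, Gas6 averaged 10.6 ± 1.61 RPKM in mutant and 10.5 ± 2.13 RPKM in wild-type libraries, a log2 difference of 0.03 ± 0.15 (SE), with a 95% interval of -0.30 to 0.35. In CLP the log2 difference was 0.19 ± 0.15, with an interval of -0.13 to 0.52. Permuting the 7 libraries exactly, two-sided, gave p = 0.8286 in HSC and p = 0.314 in CLP, where 0.0286 is the smallest p that it can give. In CLP the values lie below 1 RPKM, where this scale understates ratios.

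Along the populations of wild-type mice, Gas6 stood at like levels in HSC and MPP4 (log2 difference of MPP4 minus HSC -0.17 ± 0.16, limma adjusted p = 0.436) and then fell by 2.81 on the log2 scale in CLP against MPP4 (limma adjusted p = 8.84e-10). In mutant mice the mean in MPP4 was 1.76 times the mean in HSC, and the mean in MPP4 was 28.7 times the mean in CLP, where the values lie near the pseudocount and the log2 difference of -3.58 understates the ratio. These mutant differences hold the MPP4 libraries that the choice of genes rests on, and the wild-type MPP4 libraries belong to that same comparison. The p-values of the wild-type steps are therefore not independent of the choice of Gas6. By mean, as a description, the order was MPP4, HSC, CLP in mutant mice and HSC, MPP4, CLP in wild-type mice. In wild-type mice the difference between HSC and MPP4 did not pass. Whether the genotypes differ in that step was not tested.

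Levels of marker genes in the MPP4 libraries stand beside these Gas6 values. Hlf, a transcription factor of stem cells, had 36.6, 37.3, 40.4 and 45.0 RPKM in the mutant libraries, against 24.0, 18.4 and 17.2 RPKM in the wild-type libraries, and 46.8 to 69.2 RPKM in HSC. Mecom, another stem cell factor, had 5.56 to 8.96 RPKM in mutant and 3.07 to 5.40 RPKM in wild-type MPP4. Dntt, a lymphoid gene that encodes terminal transferase, had 482 to 595 RPKM in mutant and 765 to 1055 RPKM in wild-type MPP4. Cd48 had 108 to 141 RPKM in mutant and 148 to 180 RPKM in wild-type MPP4. Among the other sorting and stage genes, Kit had 164.4 to 195 RPKM in mutant and 128 to 164.0 RPKM in wild-type MPP4. The genotypes overlapped in MPP4 for Flt3, Ly6a, Slamf1, Cd38, Cd34, Il7r and Ly6d. Over the 12 genes the median log2 difference was 0.03, with 6 positive. Summed over 11 erythroid genes the level was 2253 to 4959 RPKM in mutant and 489 to 3013 RPKM in wild-type MPP4, and over 10 neutrophil genes it was 749 to 2481 RPKM in mutant and 613 to 1142 RPKM in wild-type MPP4. Macrophage and monocyte genes summed to 409 to 587 RPKM in mutant and 360 to 415 RPKM in wild-type MPP4. By limma with Benjamini-Hochberg adjustment, mutant MPP4 passed as higher for 1 of the 12 sorting and stage genes and 1 of the 11 megakaryocyte and platelet genes, and as lower for 2 of 8 plasmacytoid dendritic and 2 of 11 B lineage genes, and for 0 of 14 macrophage, 0 of 10 neutrophil, 0 of 11 erythroid and 0 of 7 stromal and endothelial genes. Their part in the Gas6 and Scarf1 values was not tested. The annotation also places Tmem255b, on the opposite strand, across most of Gas6, and the library kit does not mark strand, so reads of both genes could be counted for either. Tmem255b had no row in the expression table, so its level could not be read.

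**Figure D1:**
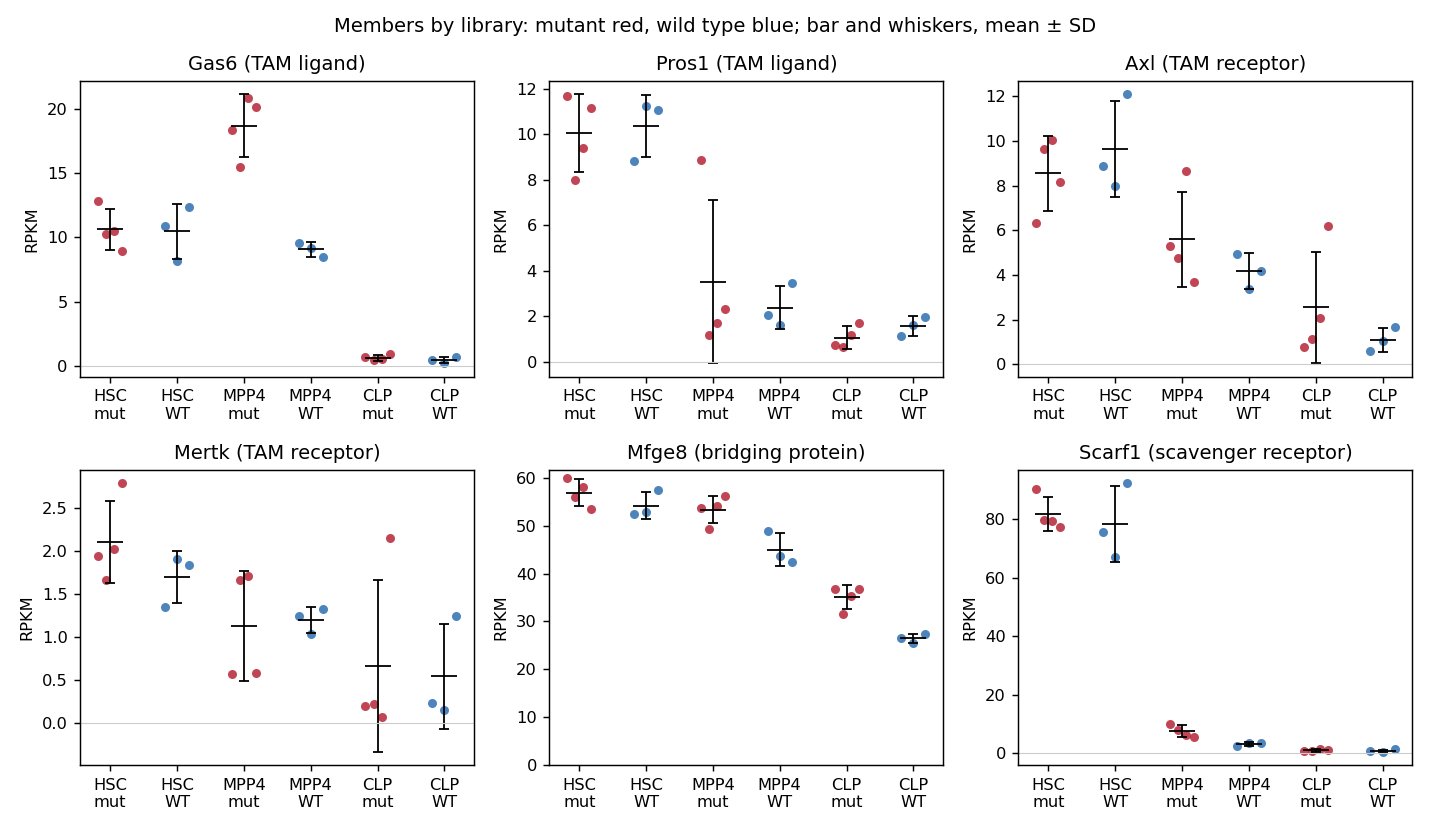
RPKM of the 6 members (one panel each, linear axis) in every library of HSC, MPP4 and CLP, with mutant libraries (red points, n = 4) left of wild-type libraries (blue points, n = 3) and bars for the mean and SD. Gas6 reaches 15.4 to 20.8 RPKM in mutant MPP4 against 8.46 to 9.56 RPKM in wild-type MPP4, and Scarf1 lies between 67.0 and 92.3 RPKM in HSC and at no more than 10.2 RPKM in MPP4 and CLP.

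Pros1, the other ligand, did not follow Gas6. It was highest in HSC, with 11.7, 7.98, 9.38 and 11.1 RPKM in the mutant libraries, against 8.82, 11.3 and 11.1 RPKM in the wild-type libraries. In MPP4 it had 8.86, 1.17, 1.71 and 2.33 RPKM in the mutant libraries, against 2.05, 1.62 and 3.44 RPKM in the wild-type libraries. In CLP it had 0.728, 0.625, 1.16 and 1.72 RPKM in the mutant libraries, against 1.11, 1.62 and 1.97 RPKM in the wild-type libraries. The genotypes overlapped in all 3 populations, and 1 mutant MPP4 library lay far above the other 6. That library was replicate 1, which was the highest of the 7 MPP4 libraries for 10 of 11 megakaryocyte and platelet genes, with Gp9 at 59.4 RPKM and Vwf at 13.0 RPKM. Platelets and megakaryocytes are known to hold protein S, and Gp9 and Vwf were also the genes whose levels ran closest to Pros1 over the 21 libraries (Pearson r = 0.966 and 0.963). The megakaryocyte and platelet sum was highest in HSC, at 578 to 607 RPKM in mutant and 608 to 683 RPKM in wild-type libraries. Pros1 was also highest in HSC, so this likeness includes the differences between populations. The part of platelets and megakaryocytes in the Pros1 values was not tested. Without mutant MPP4 replicate 1 the log2 difference between mutant and wild-type MPP4 was -0.29 instead of 0.18.

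In the populations that did not serve the choice of genes, the log2 difference in Pros1 between mutant and wild type was -0.05 ± 0.35 in HSC (95% interval -0.77 to 0.68) and -0.34 ± 0.35 in CLP (-1.06 to 0.39), both with a limma adjusted p = 1.00. In wild-type mice Pros1 fell by 1.78 on the log2 scale in MPP4 against HSC (limma adjusted p = 6.65e-04). Wild-type CLP, at 1.57 ± 0.428 RPKM, against 2.37 ± 0.948 RPKM in wild-type MPP4, showed no further difference that passed (log2 difference -0.37, limma adjusted p = 0.608).

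Among the receptors, Axl was the more highly expressed in HSC and Mertk stayed below 3 RPKM in every library. Axl, the TAM kinase that Gas6 binds most tightly, had 6.32, 9.65, 10.1 and 8.15 RPKM in mutant HSC, against 8.89, 7.97 and 12.1 RPKM in wild-type HSC. It had 5.28, 4.76, 8.64 and 3.70 RPKM in mutant MPP4, against 4.96, 3.35 and 4.19 RPKM in wild-type MPP4. It had 0.763, 1.15, 2.07 and 6.21 RPKM in mutant CLP, against 0.613, 1.03 and 1.67 RPKM in wild-type CLP. The genotypes overlapped in each population, and a single mutant CLP library was high.

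Mertk, the kinase through which macrophages take up dying cells, had 1.94, 1.67, 2.03 and 2.79 RPKM in mutant HSC, against 1.35, 1.91 and 1.83 RPKM in wild-type HSC. In MPP4 it had 0.573, 1.66, 1.71 and 0.576 RPKM in the mutant libraries, against 1.25, 1.03 and 1.32 RPKM in the wild-type libraries. In CLP it had 0.192, 0.218, 0.070 and 2.16 RPKM in the mutant libraries, against 0.232, 0.145 and 1.24 RPKM in the wild-type libraries. Here too the genotypes overlapped everywhere, and the high mutant CLP library was the same as for Axl.

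That library was mutant CLP replicate 4, the highest of the 7 CLP libraries for 13 of 14 macrophage and monocyte genes, with Adgre1 (the F4/80 antigen) at 3.36 RPKM, Vcam1 at 15.2 RPKM and C1qb at 20.4 RPKM. Without it the log2 difference of Axl between mutant and wild-type CLP was 0.14, against 0.56 ± 0.34 with it (95% interval -0.16 to 1.27, limma adjusted p = 1.00), and that of Mertk was -0.34, against 0.02 ± 0.31 with it (-0.63 to 0.67, limma adjusted p = 1.00). Wild-type CLP replicate 3 had the highest Axl (1.67 RPKM), Mertk (1.24 RPKM) and macrophage and monocyte sum (305 RPKM) of the wild-type CLP. Mutant CLP replicate 2 had a sum of 481 RPKM, with Axl at 1.15 RPKM and Mertk at 0.218 RPKM. The part of macrophage RNA in the Axl and Mertk values was not tested. In HSC the log2 differences were -0.16 ± 0.34 for Axl and 0.20 ± 0.31 for Mertk, again with a limma adjusted p = 1.00.

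**Figure D2:**
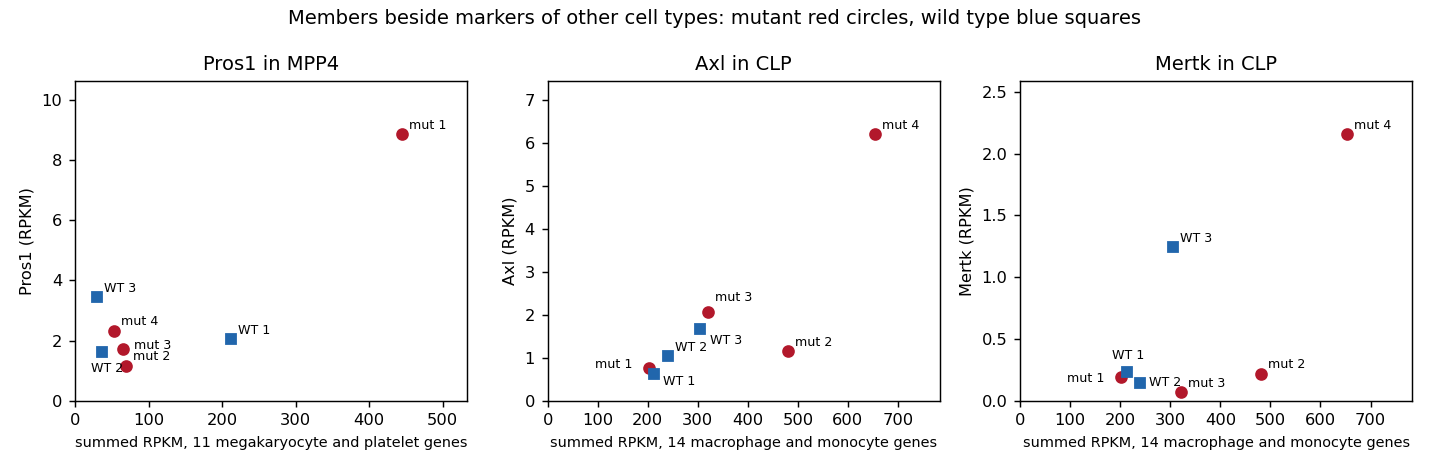
Levels of Pros1 in MPP4 and of Axl and Mertk in CLP (RPKM, vertical axes) against the summed RPKM of marker genes of another cell type (horizontal axes), one point for each library, mutant as red circles and wild type as blue squares, labelled by replicate. The highest Pros1 value (8.86 RPKM) sits at the highest megakaryocyte and platelet sum, and the highest Axl and Mertk values (6.21 and 2.16 RPKM) at the highest macrophage and monocyte sum.

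Axl fell at both steps of the wild-type series, by 1.04 on the log2 scale in MPP4 against HSC (limma adjusted p = 0.0300) and by 1.31 in CLP against MPP4 (limma adjusted p = 0.0193). Neither call is firm. The first was lost without wild-type HSC replicate 1 or 3 or wild-type MPP4 replicate 2 or 3 (limma adjusted p = 0.0505, 0.114, 0.0995 and 0.0634). The second was lost without wild-type MPP4 replicate 1 or 3 or wild-type CLP replicate 1 or 2 (limma adjusted p = 0.0822, 0.0526, 0.0862 and 0.0572). Over the whole span Axl fell by 2.35 in wild-type CLP against HSC (limma adjusted p = 1.98e-05).

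Mfge8, the integrin bridge, was abundant throughout and was the most evenly expressed member. In HSC it had 59.9, 56.0, 58.1 and 53.4 RPKM in the mutant libraries, against 52.4, 52.8 and 57.3 RPKM in the wild-type libraries. In MPP4 it had 53.6, 49.3, 54.1 and 56.1 RPKM in the mutant libraries, against 48.9, 43.6 and 42.5 RPKM in the wild-type libraries. In CLP it had 36.7, 31.5, 35.2 and 36.7 RPKM in the mutant libraries, against 26.6, 25.5 and 27.3 RPKM in the wild-type libraries. The genotypes overlapped in HSC, and in MPP4 and CLP every mutant library was above every wild-type library.

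In CLP, Mfge8 averaged 35.0 ± 2.46 RPKM in mutant (SD, n = 4) and 26.5 ± 0.951 RPKM in wild-type libraries (n = 3), a ratio of 1.32 and a log2 difference of 0.39 ± 0.07 with a 95% interval of 0.24 to 0.54. Its unadjusted limma p of 3.21e-05 was the smallest of the 11496 genes in that comparison, and it did not pass after Benjamini-Hochberg adjustment (limma adjusted p = 0.313). Without mutant CLP replicate 2 the adjusted limma p was 0.0383 and the log2 difference 0.44, while without mutant CLP replicate 4 the difference was 0.37 and the adjusted limma p 0.967. In HSC the log2 difference was 0.07 ± 0.07 (-0.08 to 0.22). The genotype difference in CLP less that in HSC was 0.32 ± 0.10 (0.11 to 0.54), with an unadjusted limma p of 0.00544 and a limma adjusted p = 1.00, so a difference between the populations was not established. In MPP4, as a description, the means were 53.3 ± 2.86 RPKM in mutant and 45.0 ± 3.44 RPKM in wild-type libraries.

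Scarf1, the scavenger receptor, was the member with the steepest decline along the populations. In HSC it had 90.2, 79.8, 79.4 and 77.4 RPKM in the mutant libraries, against 75.7, 67.0 and 92.3 RPKM in the wild-type libraries. In MPP4 it had 10.2, 8.03, 6.44 and 5.46 RPKM in the mutant libraries, against 2.60, 3.69 and 3.52 RPKM in the wild-type libraries. In CLP it had 0.654, 0.709, 1.64 and 1.00 RPKM in the mutant libraries, against 0.678, 0.628 and 1.37 RPKM in the wild-type libraries. Mutant and wild type overlapped in HSC and CLP, and in MPP4 all mutant libraries were higher.

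The Scarf1 means in MPP4, again as a description, were 7.52 ± 2.05 RPKM in mutant and 3.27 ± 0.587 RPKM in wild-type libraries, a ratio of 2.30 and a log2 difference of 0.98. Mutant MPP4 replicate 1, the library with the high megakaryocyte sum, had the highest value, and without it the log2 difference was 0.84. The mutant MPP4 mean was still 10.9 times lower than the mutant HSC mean. In the 2 populations that did not serve the choice, the log2 difference was 0.07 ± 0.19 in HSC (-0.32 to 0.46) and 0.08 ± 0.19 in CLP (-0.32 to 0.47), each with an exact two-sided permutation p = 0.686.

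Counted over the members, mutant against wild type gave 0 calls of 6 in HSC, where limma with Benjamini-Hochberg adjustment over all genes and a threshold of 0.05 called 6 of 11496 genes (0.0522%), and 0 of 6 in CLP, where it called 0 genes (0%) and where 507 genes had an unadjusted p under 0.05. In HSC 512 genes had such a p. The comparison that chose the members called 25 genes (0.217%) in MPP4, among them Gas6 and Scarf1, from which nothing is read here. The genotype difference in CLP less that in HSC called 1 gene (0.0087%) and none of the members, with 420 genes under an unadjusted 0.05. With the replicate number as a block it called 2 genes (fixed) or 3 genes (random), again none of the members. The median log2 difference of the 6 members was 0.05 in HSC and 0.14 in CLP, beside 0.01 and 0.00 over all genes.

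No member had mutant and wild-type libraries apart in HSC, where 5.25% of all genes did. In CLP the libraries were apart for 1 member, Mfge8, beside 4.12% of all genes. In MPP4 they were apart for Gas6, Mfge8 and Scarf1, each with the mutant above, beside 6.68% of all genes with the mutant above and 10.1% in either direction, and nothing is read from that count either.

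**Figure D3:**
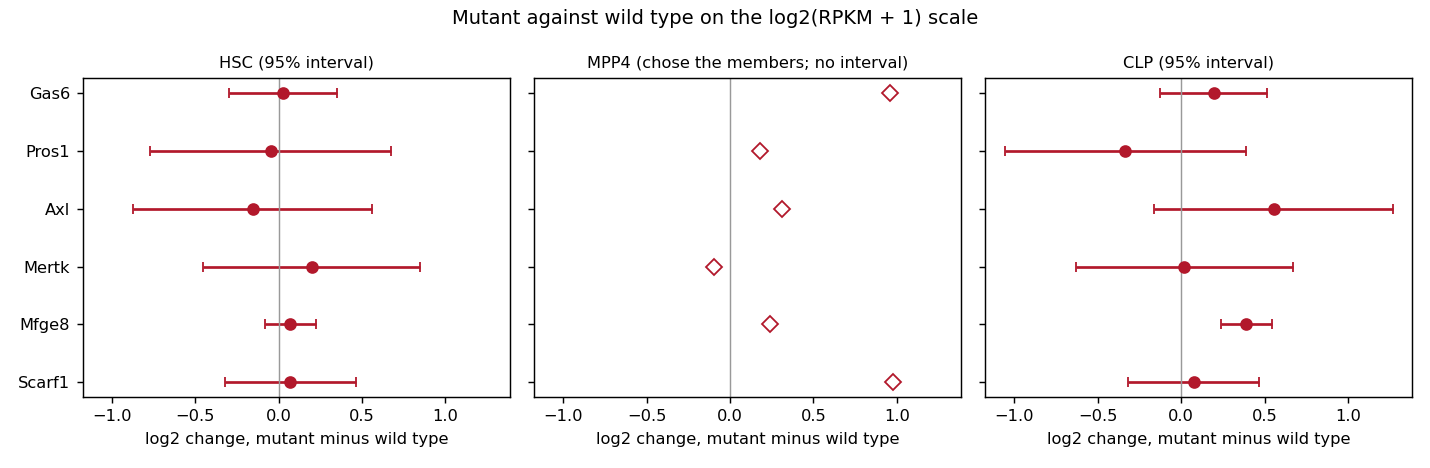
Difference of mutant minus wild type in log2(RPKM + 1) for the 6 members in HSC, MPP4 and CLP. Points are the differences, bars the 95% intervals from limma where the comparison did not choose the members, and MPP4 is drawn without intervals. The HSC differences lie between -0.16 and 0.20, Gas6 and Scarf1 stand at 0.96 and 0.98 in MPP4, and Mfge8 in CLP is at 0.39 with an interval that does not reach 0.

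Across the populations, and within either genotype, the members declined from the stem cell to the lymphoid progenitor. Wild-type CLP were lower than wild-type HSC for all 6 members tested, where limma called 51.1% of all genes and the median log2 difference was -2.25 for the members and -0.10 for all genes. Mutant CLP were lower than mutant HSC for all 6 as well, beside 57.8% of all genes called, with a median of -2.04 beside -0.11. The mutant and the wild-type comparison share no library. Scarf1 fell by 5.39 on the log2 scale in mutant CLP and by 5.40 in wild-type CLP, where the HSC mean was 87.7 times the CLP mean. Gas6 fell by 2.81 in mutant and by 2.98 in wild-type CLP, and Pros1 fell by 2.44 in mutant and by 2.15 in wild-type CLP. Mfge8 fell by 0.68 in mutant and by 1.01 in wild-type CLP, the 2 genotypes' difference being the 0.32 given above. Limma adjusted p values of these 4 genes were at most 6.06e-05.

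The receptors moved less evenly. Axl fell by 1.64 in mutant CLP (limma adjusted p = 1.73e-04), with CLP replicate 4 included, and by 2.06 without that library. Mertk, the lowest of the members in HSC, fell by 1.05 in mutant CLP (limma adjusted p = 0.00389) and by 0.87 in wild-type CLP (limma adjusted p = 0.0340). The wild-type call on Mertk was lost without HSC replicate 2 or 3 or CLP replicate 1 or 2 (limma adjusted p = 0.0856, 0.0812, 0.113 and 0.135), and quantile normalization ended it in both genotypes (log2 difference -0.45 with a limma adjusted p = 0.112 in mutant and -0.41 with a limma adjusted p = 0.223 in wild-type mice).

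In wild-type MPP4 against HSC, limma called 39.3% of all genes and 4 of the 6 members, all lower: Scarf1, which fell by 4.21 (limma adjusted p = 2.59e-12), Pros1, Axl, and Mfge8, which fell by 0.26 (limma adjusted p = 0.0104, and 0.0510 or 0.0555 without HSC or MPP4 replicate 3). Gas6 and Mertk did not pass, with log2 differences of -0.17 and -0.29. In wild-type CLP against MPP4, limma called 13.1% of all genes and again 4 of 6 members, all lower: Gas6, Axl, Mfge8, which fell by 0.74 (limma adjusted p = 1.17e-06), and Scarf1, which fell by 1.19 (limma adjusted p = 3.26e-04). Pros1 and Mertk did not pass, with log2 differences of -0.37 and -0.58. The larger log2 difference of Pros1 and Scarf1 lay between MPP4 and HSC, and that of Gas6 between CLP and MPP4, though the steps were not tested against each other. They share the wild-type MPP4 libraries with each other and with the comparison that chose Gas6 and Scarf1. The calls on Gas6 and Scarf1 at these steps, and the counts of members that include them, are therefore not independent of that choice.

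**Figure D4:**
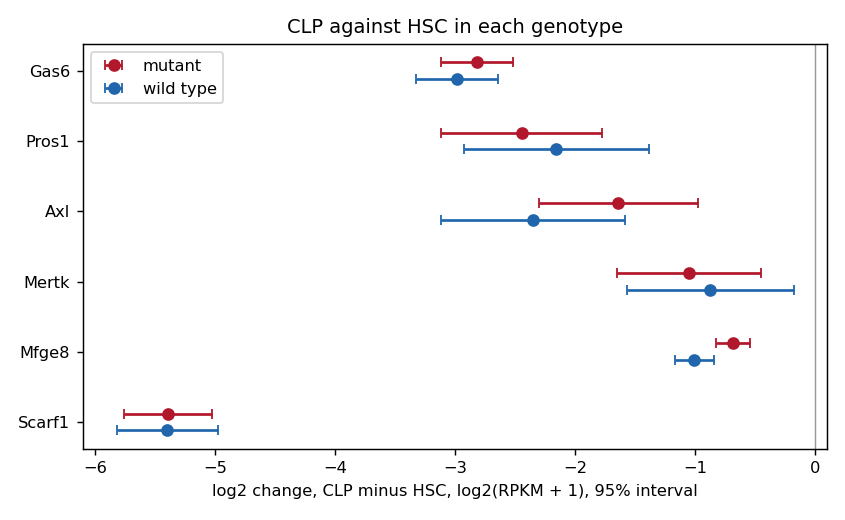
Difference of CLP minus HSC in log2(RPKM + 1) for the 6 members, mutant mice in red and wild-type mice in blue, with 95% intervals from limma. All lie below 0, from -0.68 for Mfge8 in mutant mice to -5.40 for Scarf1 in wild-type mice.

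The members' profiles over the 21 libraries resembled each other in pairs, which is a description because the libraries share 3 populations. The closest pairs on log2(RPKM + 1) were Pros1 with Scarf1 (Pearson r = 0.924) and Gas6 with Mfge8 (r = 0.920). Gas6 with Pros1, the TAM ligands, had the lowest value of the 15 pairs (r = 0.588). Over all genes the profiles most like that of Gas6 were B230118H07Rik (r = 0.982), Mc5r (0.977), Gcnt2 (0.973), Pcp4l1 (0.972) and Stxbp4 (0.971). Mc5r, a melanocortin receptor, averaged 43.7 ± 1.43 RPKM in mutant and 28.9 ± 3.53 RPKM in wild-type MPP4, and 2.22 ± 1.58 RPKM in mutant and 1.66 ± 0.449 RPKM in wild-type CLP. Gcnt2, an enzyme that branches glycans, averaged 96.6 ± 7.05 RPKM in mutant and 64.0 ± 4.47 RPKM in wild-type MPP4, and was also the closest to Mfge8 (r = 0.959), ahead of Aldh2 (0.958) and Nkx2-3 (0.955). Among the profiles closest to Scarf1 were Obsl1 (0.993) and Slc27a6 (0.992). After Gp9 and Vwf, Pros1 was closest to Fhl1 (0.960). Axl was closest to Pygl (0.952), Creg1 (0.939) and Ube2l6 (0.935), and Mertk to Kif21a (0.936), Kdr (0.936) and B3galt1 (0.928).

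Genes around the members in the same pathway were read from 6 lists. None of their 82 tested genes passed the test between mutant and wild type in HSC, MPP4 or CLP. Over all genes 0.0522% passed in HSC, 0.217% in MPP4 and 0% in CLP, so nothing is read from that count. The smallest adjusted value of the 82 genes was that of Anxa5, a phosphatidylserine-binding annexin, in MPP4 (log2 difference 0.71 ± 0.18, limma adjusted p = 0.130). Between wild-type CLP and HSC 46 of the 82 passed (56.1%), beside the 51.1% of all genes.

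The first list held genes that make or release TAM proteins. Of its 6 tested genes, 1 rose and 4 fell in wild-type CLP against HSC (median log2 difference -0.61, beside -0.10 for all genes). The enzymes that act on vitamin K-dependent proteins such as Gas6 were among those that fell: the carboxylase Ggcx, at 7.17 ± 0.843 RPKM in CLP and 11.6 ± 1.38 RPKM in HSC, and the vitamin K reductase Vkorc1, at 59.4 ± 3.53 RPKM in CLP and 103 ± 17.9 RPKM in HSC. Adam10, a protease that cuts receptors such as Axl from the cell surface, fell by 0.88 (limma adjusted p = 1.01e-06).

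Of 19 other bridging and uptake genes, 5 rose and 8 fell in wild-type CLP against HSC (median -0.16). Anxa5 averaged 13.6 ± 4.21 RPKM in CLP and 144 ± 19.6 RPKM in HSC, and Cd300lb, a lipid receptor of myeloid cells, averaged 9.92 ± 2.34 RPKM in CLP and 0.321 ± 0.487 RPKM in HSC. C1qa, a chain of the C1q that Scarf1 is known to read, fell by 2.58 (limma adjusted p = 9.24e-04). Macrophages are the usual source of C1q, and C1qa is one of the macrophage markers counted above.

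Of 11 genes for lipid exposure and self signals, 2 rose and 4 fell (median -0.10). Plscr1, a scramblase-family protein, averaged 1.58 RPKM in CLP and 27.8 RPKM in HSC (log2 difference -3.48, limma adjusted p = 9.72e-12), and Cd47, the signal that protects cells from uptake, averaged 615 RPKM in CLP and 367 RPKM in HSC (0.74, limma adjusted p = 5.21e-06). Of 24 genes of the engulfment machinery, 7 rose and 5 fell (median -0.01), among them Dock1, an activator of Rac in engulfment, which fell by 2.57 (limma adjusted p = 2.75e-09). Of 16 TAM signalling partners, 3 rose and 4 fell (median -0.03), with the interferon receptor chain Ifnar2 higher by 1.42 (limma adjusted p = 1.21e-11). Of 6 genes that handle lipid after uptake, 1 rose and 2 fell (median -0.35), with Ucp2, a mitochondrial carrier, higher by 0.93 and the sterol exporter Abcg1 lower by 0.71 (a log2 difference of -0.71).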

How the data were processed

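RNA was copied to DNA with SMART-seq v4 and made into libraries with NexteraXT, per the labels' protocols, and reads were aligned with STAR to mm10, per the submitters' processing notes. The authors deposited one table of RPKM values for 11628 genes in 21 libraries. How reads were counted, with which annotation and filter, was left unstated by the labels. Depth is unknown, so no counting interval is given. Gene symbols that had been turned into dates (16) were restored from the gene ID through RefSeq.

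RPKM were taken as log2(RPKM + 1). Genes with at least 1 RPKM in at least 3 libraries were kept (11496, with 132 left out), and all 6 members passed, Gas6 and Mertk in 14 libraries and the others in 17 to 21. One limma fit (version 3.58.1, R 4.3.3) gave 6 group means over all libraries, with a mean-dependent prior, two-sided tests and Benjamini-Hochberg adjustment over all kept genes at a threshold of 0.05. The design text counts 4 mutant and 3 wild-type mice, and p-values measure only the spread between these libraries. Same-numbered libraries of a genotype deviated together (r over 0.1) in all pairs of mutant CLP with HSC (4 pairs, r = 0.103 to 0.481) and mutant MPP4 with HSC (4 pairs, 0.121 to 0.330). The same held for wild-type CLP with HSC (3 pairs, 0.131 to 0.340) and wild-type CLP with MPP4 (3 pairs, 0.217 to 0.271). It held in 2 of 3 pairs of wild-type MPP4 with HSC (0.094 to 0.330) and 3 of 4 pairs of mutant CLP with MPP4 (0.096 to 0.379). These correlations do not show which libraries came from the same mouse, and the fit used treated all libraries as unpaired. The labels name no mouse, and mutant replicate 4 is labelled 10 weeks in CLP and 12 weeks in HSC and MPP4. The code was tested on simulated data.

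The members, pathway lists and marker lists were chosen with earlier results of these data known. Every member with a row is named. Of each list, the genes named come from the up to 4 called genes with the largest change, and Anxa5 in MPP4 was chosen after its value was seen, as were the single marker genes. The genes named for likeness are the 5 with the highest Pearson r to Gas6 and the 3 highest to each other member, of which 1 is not reported here. Alternatives were other pseudocounts, filters, scalings, sample sets, sex and age terms, replicate blocks and leaving out each library. Gene positions come from RefSeq on GRCm38.p6.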

Additional observations from a re-analysis of the deposited data

Results flagged for a closer look

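Each member was examined in the 3 mutant groups of 4 libraries, 18 groups in all, for a library whose distance to its nearest neighbour was past Dixon's 95% critical share of the group's range. By chance about 5% of such groups are marked. A library was far from the others in 2 of them. Pros1 was at 8.86 RPKM in mutant MPP4 replicate 1, against 1.17 to 2.33 RPKM in the other mutant MPP4 libraries, and this library also had the highest megakaryocyte and platelet sum of the MPP4. Mertk was at 2.16 RPKM in mutant CLP replicate 4, against 0.070 to 0.218 RPKM in the other mutant CLP libraries, and this library also had the highest macrophage and monocyte sum of the CLP.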

How the results depend on the processing

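No member passed between mutant and wild type in HSC under any alternative run, and in CLP only Mfge8 did, without mutant replicate 2, its adjusted limma p otherwise being 0.113 to 1.00 with all libraries. The comparison in MPP4 chose the members, so its counts describe the settings and support nothing: members called, 2 in the fit used, were 0 with a pseudocount of 0.1, and 1 with a pseudocount of 0.5, with quantile normalization or with only the compared groups fitted. Over all genes, the 25 calls in MPP4 became 0 with a pseudocount of 0.1, 14 with 0.5, 3 with only the compared groups and 48 with sex and age terms. The 6 in HSC became 12 with quantile normalization and 0 with only the compared groups. The 1 for CLP less HSC became 0 with only those groups, 2 with replicate number as a fixed block and 3 as a random block. Causes were not tested.

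Leaving out single libraries gave 2 to 7 genes in HSC, 7 to 19 in MPP4, 0 to 5 in CLP and 0 to 3 for CLP less HSC. Members called then ranged from 0 to 2 in MPP4, from 0 to 1 in CLP, from 2 to 4 for wild-type MPP4 against HSC, from 3 to 4 for CLP against MPP4 and from 5 to 6 for CLP against HSC.

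Differences near 0 changed sign. Mertk in CLP was -0.14 and -0.0082 with pseudocounts of 0.1 and 0.5, -0.044 with sex and age terms and -0.091 with the number as a fixed block. Gas6 in HSC was -0.011 with quantile normalization, and Scarf1 for CLP less HSC was -0.069 with it and -0.047 with sex and age terms. With libraries left out, HSC values ran from -0.13 to 0.15 (Gas6), -0.15 to 0.048 (Pros1), -0.27 to 0.0014 (Axl) and -0.035 to 0.19 (Scarf1). CLP values ran from -0.34 to 0.33 (Mertk) and -0.066 to 0.25 (Scarf1), and CLP less HSC from -0.54 to 0.13 (Mertk) and -0.14 to 0.18 (Scarf1). Axl in wild-type MPP4 against HSC missed the threshold with a pseudocount of 0.1 (limma adjusted p = 0.0681), and Mfge8 did with only the compared groups (0.0518).

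Same-numbered libraries of the 2 genotypes have the same labelled age and sex in each population. Their deviations from the group means correlated at -0.15 to 0.45 (9 pairs, 5 over 0.1). The fit used did not match them by number. Either replicate block left every call on a member, between genotypes and between populations, as it was, and beyond the counts given above moved no count of genes by over 1.5 times.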
